A study of Homo sapiens with 4 samples.

Results

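The cells described here were the non-cycling cells of 4 plates of MCF10A cells, defined as the 20% of cells on each plate with the lowest level of 10 proliferation genes. MCF10A is an untransformed human breast epithelial line, used here with a GFP-tagged histone H2B. The cells were grown for 6 days as circular patches on fibronectin-coated glass, in medium with horse serum, EGF, insulin, hydrocortisone and cholera toxin. Living cells carried photoactivatable dyes that mark a cell's distance from the patch edge. They were sorted 1 per well and sequenced by SORT-seq, a plate method that counts mRNA 3′ ends by molecular barcodes (UMIs). In the 2 low-resolution plates the patch was tagged as concentric rings 1000 to 1500 μm wide, and in the 2 high-resolution plates as 2 outer bands of 250 μm and the inside. Each resolution had 2 plates, from biological replicates. Which region a well's cell came from was not used, so non-cycling state and position in the patch cannot be told apart.

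The 10 genes were MKI67, TOP2A, CENPF, CCNB1, PCNA, MCM3, MCM5, RRM2, TYMS and TK1, and their summed counts were divided by all counts of the cell other than spike-ins and given per 10000. Wells were kept when 2000 to 9000 genes were detected and mitochondrial rows made up under 40% of the counts. Of 1536 wells 1146 passed, and 228 of these were members. Plates are always given in the order low resolution 1, low resolution 2, high resolution 1, high resolution 2. They held 58, 54, 58 and 58 non-cycling cells, beside 233, 217, 233 and 235 other passing cells. Total counts per plate were 11709628 to 14992348, with a median of 30118 to 40893 counts per passing cell. The same 384 well barcodes serve every plate, and 126 wells passed on all 4, so shared barcodes do not mark shared cells.

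A dividing cell copies its DNA in S phase and divides after G2, and each step switches on its own set of genes. S phase genes are driven by E2F transcription factors, and many G2/M genes by the MuvB complex with MYBL2 and FOXM1. In cells that leave the cycle, RB-family pocket proteins and the DREAM complex hold both sets down, and CDK inhibitors such as CDKN1A and CDKN1B block the kinases that would release them. Resting cells commonly express FOXO targets and antiproliferative genes, and in stratified epithelia cell cycle exit often goes with differentiation.

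The 10 genes that chose the cells were low by construction, so their values only describe the choice. The median level of non-cycling cells was 0.688, 0.426, 1.04 and 1.09 counts per 10000, against 3.12, 2.44, 13.5 and 14.7 in the other cells. The last cell inside the limit had 1.10, 0.724, 1.93 and 1.56, and the first outside had 1.10, 0.731, 1.94 and 1.57. The limit lay in a dense part of the distribution, with 48, 36, 42 and 47 cells within 25% of it. With the rule applied to cells thinned to 10000 UMIs, 35 of 58, 34 of 54, 39 of 58 and 39 of 58 members were chosen again. With the S phase and G2/M lists in place of the 10 genes, 14, 22, 41 and 36 were chosen again, a minority on the low-resolution plates. These were 24.1%, 40.7%, 70.7% and 62.1% of the members. A random choice of 20% of the cells would share about 20%, so the agreement on low resolution 1 was little above that. The limits on the low-resolution plates were close to the sampling limit, since no UMI of these genes at the median depth of a non-cycling cell allows a level of up to 1.17, 0.940, 1.08 and 1.01 per 10000. No UMI at all was found in 7, 11, 3 and 2 members, and these were shallow, with median depths of 12744, 19415, 23752 and 16459 counts. MKI67, the classical proliferation antigen, was at 0.0505, 0.0321, 0.0825 and 0.103 in members and at 1.83, 1.22, 1.83 and 1.72 in the other cells. PCNA, the sliding clamp of DNA replication, was at 0.208, 0.209, 0.330 and 0.324 against 2.31, 1.74, 2.42 and 2.64. TOP2A, which untangles DNA, lay at 0.0107 to 0.0657 in members and at 1.12 to 1.95 in the others. RRM2, a ribonucleotide reductase subunit, lay at 0.0321 to 0.197 against 1.74 to 3.87. TYMS contributed almost nothing, with no more than 0.0117 in any arm.

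**Figure D1:**
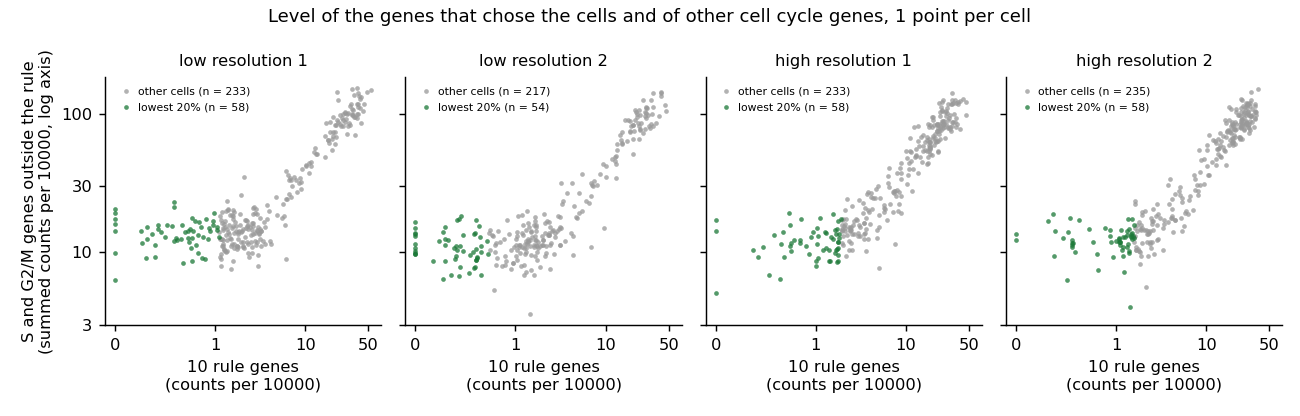
Each point is 1 passing cell. The horizontal axis is the summed level of the 10 genes that chose the cells (counts per 10000, linear from 0 to 1 and logarithmic above), and the vertical axis is the summed level of the S phase and G2/M lists without those genes (counts per 10000, log axis). Green points are the non-cycling cells (58, 54, 58 and 58) and grey points the others; on the low-resolution plates a large group of grey points lies level with the green ones.

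Cell cycle genes that played no part in the choice were also low. The summed level of the S phase and G2/M lists was 13.5, 10.6, 12.1 and 12.1 counts per 10000 in non-cycling cells and 49.9, 41.8, 57.6 and 64.2 in the other cells, a mean log2 difference of -2.13 ± 0.24 (SD, n = 4 plates). Across all genes, edgeR's quasi-likelihood test on counts summed per plate, with plate as a block, called 1680 of 11199 genes higher in non-cycling cells (15%) and 1686 lower (15.1%), at a Benjamini-Hochberg adjusted p under 0.05. All 40 tested S phase genes and all 51 tested G2/M genes were called lower, with median log2 differences of -2.71 and -3.17, beside a median of 0.03 over all genes tested. They share the cycle with the genes of the rule, so these counts describe the members and are no separate evidence. Both lists were similarly low in further cells of the low-resolution plates. When each plate was divided into bins of 20% by the rule's level, the G2/M list stood at 9.04, 9.05 and 9.73 in the lowest 3 bins of low resolution 1 and at 7.34, 7.40 and 8.10 in those of low resolution 2, and only then rose to 24.9 and 17.7. On the high-resolution plates it had reached 20.1 and 22.7 in the middle bin. The name non-cycling therefore fitted the members by these RNA levels, but on the low-resolution plates it would have fitted the next 2 bins as well.

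The largest differences outside these lists were those of mitotic and replication genes. They too share the cycle with the genes of the rule, so their values describe the members and are no separate evidence. MYBL2, a MuvB partner that activates G2/M genes, was at 0.0126, 0.0107, 0.0291 and 0.0282 counts per 10000 in non-cycling cells and at 0.453, 0.428, 0.677 and 0.756 in the others (log2 -4.73 ± 0.20 SE, edgeR adjusted p = 8.5e-11). The kinases PBK, PLK1 and MELK differed by log2 -4.44, -3.57 and -3.30, and the spindle proteins KIF20A, PRC1 and ASPM by -4.30, -3.86 and -3.26. Cyclin A (CCNA2) differed by -3.67, the histone chaperone ASF1B by -3.65 and the checkpoint protein MAD2L1 by -3.54. Each of these 10 genes was lower in non-cycling cells on all 4 plates, which was a condition for naming them and not a result. CDK1, the mitotic kinase, fell from 1.13, 0.684, 0.967 and 1.35 in the other cells to 0.0505, 0.0428, 0.0388 and 0.0751.

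Promoters of 3 of these genes are printed to show the elements such genes are known for, next to those of 2 genes described further on. The letters run 5′ to 3′ from 100 bases before to 20 bases after the start of transcription (RefSeq, GRCh38.p14). In capitals are matches, on either strand, to 5 short motifs, namely the cell cycle homology region or CHR (TTTGAA), which MuvB binds, the CCAAT box (CCAAT), E2F-type sites (TTTGGCGC, TTTCCCGC or TTTCGCGC), the AP-1 site (TGANTCA) and the TATA box (TATAAA).
CDK1, chr10:60778378-60778497, plus strand: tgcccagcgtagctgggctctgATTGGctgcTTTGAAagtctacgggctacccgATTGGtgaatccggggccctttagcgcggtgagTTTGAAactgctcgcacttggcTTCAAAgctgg
CCNB2, chr15:59105046-59105165, plus strand: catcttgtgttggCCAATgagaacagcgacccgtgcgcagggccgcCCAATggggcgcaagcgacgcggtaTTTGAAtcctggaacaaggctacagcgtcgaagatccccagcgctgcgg
PLK1, chr16:23678789-23678908, plus strand: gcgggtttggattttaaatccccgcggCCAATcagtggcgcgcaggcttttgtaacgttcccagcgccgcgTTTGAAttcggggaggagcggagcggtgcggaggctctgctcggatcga
KRT10, chr17:40822595-40822714, minus strand: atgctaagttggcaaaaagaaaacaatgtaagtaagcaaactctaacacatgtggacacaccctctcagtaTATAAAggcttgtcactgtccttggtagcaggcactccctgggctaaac
CDKN1A, chr6:36678614-36678733, plus strand: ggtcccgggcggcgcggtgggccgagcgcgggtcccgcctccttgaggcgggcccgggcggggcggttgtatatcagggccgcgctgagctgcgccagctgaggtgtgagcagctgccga
CCNB2 and PLK1 each hold a CHR 29 bases before the start with CCAAT boxes upstream, and CDK1 holds 3 CHR and 2 CCAAT matches in the window shown, the second of its 2 windows in the RefSeq table. KRT10 holds a TATA box at the same distance, and the CDKN1A window holds none of the 5 motifs. Of all 35116 promoter windows of 300 bases, 15.2% hold a CHR, 34.6% a CCAAT box, 2.74% an E2F-type site, 7.71% an AP-1 site and 11.5% a TATA box. Of the 10 genes with the largest falls, 9 had a window, and 5 held a CHR and 7 a CCAAT box. These are counts of genes, each scored over any of its windows. The percentages before them are per window, so the 2 cannot be compared directly. No share is given for the S phase and G2/M lists, because only 80 of the 101 genes had a window and the check is void below 80%. A match is a run of letters and not a measured binding site.

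Genes that drive entry into S phase were low as well. As cell cycle genes, they are likewise no separate evidence. Of 12 tested G1 cyclins, partner kinases, E2F activators and MYC, 9 were lower and 1 higher, with a median log2 difference of -1.16. The background was 15.1% lower and 15% higher. CDC25A, the phosphatase that activates CDK2, was at 0.0189, 0.0107, 0 and 0.00938 counts per 10000 against 0.112, 0.158, 0.153 and 0.165 (log2 -3.90 ± 0.38 SE, adjusted p = 1.4e-06). E2F1 differed by -2.52, CDK2 by -2.16 and CDK4 by -0.99, all lower on every plate. MYC was the single gene called higher, by 0.46, but it was not higher on all 4 plates. At the equal depth described further on it differed by 0.28 (edgeR adjusted p = 0.37).

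No CDK inhibitor was called higher in non-cycling cells. CDKN1A, the main p53-induced inhibitor, was at 3.19, 4.14, 6.48 and 5.29 counts per 10000 in non-cycling cells and at 4.69, 4.41, 4.99 and 6.07 in the others, lower on 3 plates and higher on high resolution 1. Its fitted log2 difference was -0.03 ± 0.11 (SE, adjusted p = 0.86). Nearly every cell held it, with a UMI in 96.6%, 96.3%, 98.3% and 96.6% of non-cycling cells. CDKN1B, which rises in protein mainly through slower degradation, was at 0.322, 0.262, 0.209 and 0.286 against 0.402, 0.292, 0.228 and 0.246 (log2 -0.01 ± 0.13, adjusted p = 0.95). Neither gene passed the test, which does not show equal levels. The CDK4 and CDK6 inhibitor CDKN2C was lower, at 0.0946, 0.0909, 0.150 and 0.211 against 0.338, 0.295, 0.380 and 0.327 (log2 -1.19 ± 0.18, adjusted p = 1.2e-04). CDKN2D (-0.90) and CDKN1C (-0.57) were lower too, so that 3 of 5 tested inhibitors were called, all downward, beside a background of 15.1%. CDKN2C and CDKN2D were both highest in the highest of the 5 bins on every plate. From the lowest to the highest bin CDKN2C ran 0.0946, 0.128, 0.148, 0.184 and 0.692 on low resolution 1. On high resolution 2 it ran 0.211, 0.155, 0.134, 0.368 and 0.526, with members above the next 2 bins. CDKN2A and CDKN2B were not analysed here. Across the 5 bins CDKN1A showed no single direction, and on high resolution 2 its level ran 5.29, 6.19, 4.12, 5.60 and 7.82 from the lowest to the highest bin. Its sign depended on how the cells were chosen, and with members chosen by the S phase and G2/M lists instead it was higher by log2 0.27 (edgeR adjusted p = 0.016).

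Of the pocket protein and DREAM genes, 6 of 12 tested were lower and none higher (median -0.39), beside a background of 15.1% lower and 15% higher. The largest difference was that of RBL1, a pocket protein gene and itself an E2F target, at 0.0379, 0.0321, 0.0340 and 0.0235 against 0.202, 0.141, 0.193 and 0.223 (log2 -2.51 ± 0.24, adjusted p = 8.2e-07). The DREAM subunits LIN9 (-1.87) and LIN54 (-1.07) and the E2F partner TFDP1 (-0.86) followed. RBL1, as an E2F target, shares the cycle with the genes of the rule and is no separate evidence.

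Antiproliferative and quiescence genes were mostly higher. Of 29 tested, 17 were higher and 1 lower, a median of 0.48 beside 0.03 over all genes tested and a background of 15% called higher. YPEL5, of a family linked to cell cycle exit, was at 1.12, 1.02, 0.826 and 0.864 counts per 10000 against 0.636, 0.736, 0.343 and 0.391 (log2 0.99 ± 0.12, adjusted p = 1.1e-05). Its relative YPEL3 differed by 0.84, the thioredoxin inhibitor TXNIP by 0.84 and the FOXO target cyclin G2 (CCNG2) by 0.69. Non-cycling cells were above the others on all 4 plates for each of these genes. The 3 FOXO factors FOXO1, FOXO3 and FOXO4 were among the 17, at 0.77, 0.57 and 1.85. DDIT4, an mTOR inhibitor induced by stress, was the gene called lower (-0.34).

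Of 27 p53 targets tested 7 were higher and 4 lower (median 0.05), the lower count lying near the background of 15.1%. TP53I3, a p53-induced oxidoreductase, was at 1.45, 1.24, 1.34 and 1.41 against 0.837, 0.873, 0.632 and 0.669 (log2 0.94 ± 0.10, adjusted p = 3.0e-06), while the G2 checkpoint protein SFN was lower by -0.57. ZMAT3 and TP53INP1 were higher by 0.57 and 0.96. Of 19 senescence-associated secretory genes tested 6 were higher and 3 lower (median 0.09), where the lower count was again near the background. The EGF-family ligand AREG was at 1.53, 1.78, 4.81 and 6.50 against 3.00, 3.21, 6.55 and 10.2 (log2 -0.63 ± 0.08, adjusted p = 2.8e-05). The growth factor binder IGFBP3 (1.04) and the protease inhibitors TIMP1 (0.45) and TIMP2 (0.56) were higher.

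**Figure D2:**
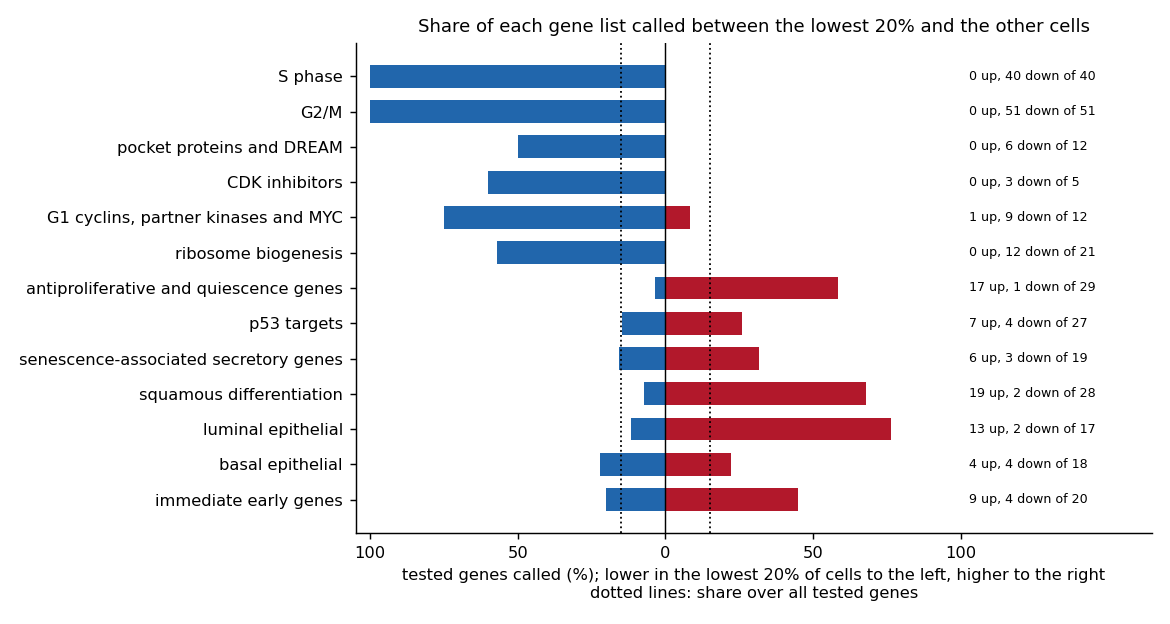
Bars give the percentage of the tested genes of each list called lower (blue, left) or higher (red, right) in non-cycling cells by edgeR at an adjusted p under 0.05, with the counts at the right. Dotted lines mark the shares over all 11199 tested genes, 15% and 15.1%; antiproliferative, squamous and luminal genes lie to the right, and cycle entry and ribosome biogenesis genes to the left.

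Genes of epithelial differentiation were largely higher. Of 28 tested squamous genes 19 were higher and 2 lower (median 0.77), and of 17 luminal genes 13 and 2 (median 0.74). The background was 15% and 15.1%. In the lowest 3 bins of low resolution 1 the summed squamous level was 87.6, 88.4 and 83.6, and the luminal level 104, 95.6 and 98.9. On low resolution 2 they were 80.8, 78.7 and 82.7, and 107, 104 and 116, so the next 2 bins lay close to the members. On high resolution 1 they were 75.1, 54.7 and 56.4, and 110, 83.5 and 76.3. On high resolution 2 they were 60.3, 60.1 and 55.9, and 90.0, 78.9 and 67.5. SPRR1B, a cornified envelope precursor, was at 2.61, 1.24, 1.96 and 1.26 counts per 10000 in non-cycling cells and at 0.531, 0.467, 0.357 and 0.195 in the others (log2 2.29 ± 0.15, adjusted p = 1.0e-08). Its paralog SPRR3 was at 1.17, 0.548, 0.709 and 0.438 against 0.338, 0.209, 0.0288 and 0.0140 (log2 2.74 ± 0.39, adjusted p = 5.9e-05). SPRR1A, the closest relative of SPRR1B, differed by 2.48, and reads of such similar genes may have been split between them. The suprabasal keratin KRT10 was at 14.8, 14.7, 12.7 and 7.81 against 8.96, 10.1, 5.00 and 3.81 (log2 0.99 ± 0.10, adjusted p = 1.7e-06). Also higher, by 0.22 to 1.67, were the kallikrein proteases KLK5, KLK6, KLK7 and KLK10 and the envelope proteins IVL, CNFN, EVPL, PPL and SPRR2A. The matrix protein ECM1, the transglutaminase TGM1, CSTA, LCN2, S100A8 and KRT16 were higher within the same range. At the equal depth described further on, ECM1 differed by -0.04 (edgeR adjusted p = 0.94), SPRR2A was not tested, and none of the others changed sign. KLK10, S100A8, TGM1, CNFN and EVPL were no longer called there (edgeR adjusted p 0.23 to 0.49). The keratin KRT6A was lower, at 12.5, 11.7, 16.5 and 15.8 against 18.4, 17.6, 25.9 and 29.0 (log2 -0.59 ± 0.06). KRT6B was lower too (-0.89), while KRT16, named above, was higher (0.42).

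The SPRR rise rested on few cells. SPRR1B had a UMI in 20 of 58, 27 of 54, 21 of 58 and 18 of 58 non-cycling cells, and the cell with the most held 40.4%, 22.9%, 62.5% and 54.5% of the members' SPRR1B UMIs. SPRR3 was found in 15, 12, 9 and 8 of them, and 11, 10, 7 and 7 held both. With every cell thinned to 10000 UMIs, leaving out 2 to 7 shallower cells a plate, the share of non-cycling cells with a SPRR1B UMI was 26.8% (95% exact binomial interval 15.8 to 40.3), 28.8% (17.1 to 43.1), 28.1% (16.97 to 41.5) and 17.2% (8.59 to 29.4). In the other cells it was 16.9% (12.3 to 22.3), 16.7% (11.95 to 22.3), 14.1% (9.85 to 19.3) and 9.44% (6.01 to 13.9), with overlapping intervals on every plate. Unthinned, the other cells held it in 33.5%, 34.6%, 40.8% and 30.6% and the members in 34.5%, 50%, 36.2% and 31.0%, at the unequal depths given further on. The plates hold 1 cell line, so no cell type lacking SPRR1B gives the share due to free RNA. With the highest cell of each arm and plate left out for each gene, SPRR1B differed by 1.74, SPRR1A by 1.64 and SPRR3 by 2.72.

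KRT10, CD24 and PSCA were spread more evenly. The median non-cycling cell held 6.16, 9.33, 3.06 and 2.702 KRT10 counts per 10000, against 3.58, 3.66, 1.61 and 1.35 in the median other cell, and the ranges overlapped fully. For the kallikrein KLK7 the medians were 2.97, 4.69, 0.743 and 0.871 against 3.02, 1.87, 0.511 and 0.536. Its median was thus not higher in members on low resolution 1, and single members held up to 93.3. CD24, a surface mucin of luminal cells, was at 22.5, 23.7, 27.1 and 20.0 against 15.2, 15.3, 12.5 and 9.40 (log2 0.93 ± 0.09, adjusted p = 7.1e-07). Of the other luminal genes, the retinaldehyde dehydrogenase ALDH1A3 differed by 0.91, the epithelial transcription factor ELF3 by 1.12 and the tight junction protein CLDN7 by 0.74. KRT18 and EPCAM, likewise on the luminal list, were lower by -0.64 and -0.39.

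The other large rises belonged to no list. PSCA, a GPI-anchored surface antigen, was at 28.5, 28.7, 19.0 and 19.6 counts per 10000 against 14.2, 15.4, 4.99 and 4.15 (log2 1.59 ± 0.16, adjusted p = 2.4e-06). GCNT3, a mucin glycosyltransferase, was at 1.93, 1.54, 1.70 and 1.41 against 0.840, 0.904, 0.415 and 0.432 (log2 1.496 ± 0.15). HSD11B2, which inactivates cortisol, the hydrocortisone of the medium, was at 8.56, 11.2, 6.32 and 6.64 against 6.09, 6.39, 2.00 and 1.74 (log2 1.29 ± 0.17). ZBED6CL (1.62), IFITM10 (1.53), TMEM45A (1.48), the retinoid-responsive RARRES1 (1.46) and MACC1 (1.24), a regulator of the MET receptor gene, completed the 10. All 10 were higher in non-cycling cells on every plate, which was a condition for naming them and not a result.

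**Figure D3:**
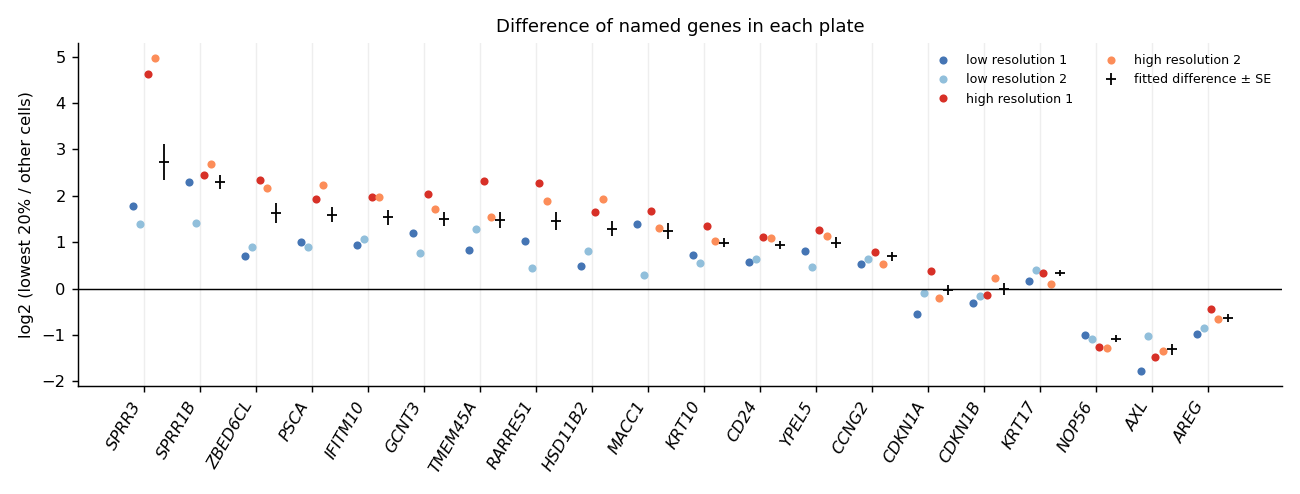
Coloured points give the log2 ratio of non-cycling to other cells on each of the 4 plates and black marks the edgeR estimate with its standard error. The 10 largest rises come first; CDKN1A and CDKN1B scatter around 0, and the points of the high-resolution plates lie above those of the low-resolution plates for SPRR3 and PSCA.

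Basal genes showed no common direction, with 4 of 18 tested higher and 4 lower (median 0.05), few genes beside the background of 15% and 15.1%. KRT17 was at 4.62, 6.02, 7.56 and 6.96 against 4.15, 4.53, 5.97 and 6.49 (log2 0.33 ± 0.07, adjusted p = 0.0016), and KRT15 (0.57) and the collagen receptor subunit ITGA2 (0.70) were higher. Of the epithelial genes of the EMT panel 30 of 56 were higher and 2 lower (median 0.39), among them the periplakin gene PPL (0.89). Of the mesenchymal genes 9 of 59 were higher, close to the background of 15%, and 14 lower (median 0.00). The Wnt antagonist SFRP1 (-1.01) was lower, while CYP1B1 (0.85) and PTGDS (1.84) were higher. The EMT score, the mean z-score of the mesenchymal minus that of the epithelial panel, had a median of -0.345, -0.458, -0.226 and -0.166 in non-cycling cells and -0.159, -0.198, 0.298 and 0.167 in the others. The mean difference was -0.326 ± 0.145 (SD, n = 4 plates, lower on all 4, exact two-sided sign-flip permutation p = 0.125, adjusted p = 0.146 over 7 measures). With 4 plates, 0.125 is the smallest p this test can give. The scores overlapped widely, with 32, 32, 32 and 31 non-cycling cells in the lower part when each plate was split at its median. Among cells of the lower part SPRR1B differed by log2 2.18, and among those of the upper part by -0.43 (adjusted p = 0.45), a contrast that was not tested itself.

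Growth genes were low. Of 21 ribosome biogenesis genes tested 12 were lower and none higher (median -0.62). The snoRNP proteins NOP56 and FBL stood at 1.17, 1.04, 1.12 and 1.09 against 2.34, 2.20, 2.67 and 2.66 (log2 -1.08 ± 0.08, adjusted p = 3.0e-08) and at 0.928, 1.08, 1.37 and 1.32 against 1.99, 2.01, 2.697 and 2.83 (log2 -0.94 ± 0.08). NOP58 (-0.85) and the nucleolar chaperone NPM1 (-0.63) were lower too. Of 77 ribosomal protein genes 6 were called lower and 1 higher, fewer than the background share. By direction alone, 53 of the 77 were lower on all 4 plates and 2 higher. Over all 11199 genes tested 3116 were lower and 1902 higher on all 4. The list's summed level was 642, 694, 636 and 722 counts per 10000 against 714, 729, 708 and 777. The largest called difference was that of the ribosomal protein paralog RPL39L (-2.26). Cholesterol synthesis genes (3 higher and 1 lower of 19) lay close to or under the background. Of 15 TGF-beta response genes 4 were higher, above the background of 15%, and 2 lower, near that of 15.1% (median 0.01). The list's summed level was 12.2, 15.48, 18.5 and 21.8 counts per 10000 against 15.8, 15.55, 24.8 and 27.7. TGFBI, a TGF-beta-induced matrix protein, was lower by -0.72. Of 13 YAP and TAZ targets 1 was higher and 3 lower, few genes beside the background of 15% and 15.1%. Among them the receptor kinase AXL was at 0.139, 0.203, 0.369 and 0.413 against 0.472, 0.414, 1.03 and 1.05 (log2 -1.31 ± 0.12, adjusted p = 5.6e-07), and CTGF was higher by 0.48.

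Of 20 immediate early genes tested 9 were higher and 4 lower (median 0.26), beside the background of 15% and 15.1%. The transcription factor genes EGR3 (1.11), EGR2 (0.79), FOSB (0.71), FOS (0.65), JUND (0.38), EGR1 (0.37) and JUNB (0.29) and the phosphatase genes DUSP1 (0.75) and DUSP5 (0.36) were higher. ETV4 (-1.95), ETV5 (-0.80), FOSL1 (-0.59) and SPRY4 (-0.36) were lower. Of 11 heat shock and dissociation stress genes 1 was higher (HSPB1, 0.53) and 3 were lower (HSP90AA1 -0.73, HSPA8 -0.49 and ATF4 -0.44). These were few genes beside the same background.

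Non-cycling cells also gave less RNA. Their median depth was 26457, 33330, 28939 and 31016 counts, against 31283, 33283, 37688 and 44464, lower on 3 of 4 plates (exact two-sided sign-flip permutation p = 0.25). Counts per count of the spike-in RNA added to each well were 64.2, 69.3, 97.9 and 81.6 against 80.4, 75.2, 132.6 and 128.4, lower on all 4 plates by a mean of 22.7%. Detected genes were 4867, 5222, 4906 and 5100 against 5279, 5293, 5739 and 6066. The mitochondrial share of counts was 31.5%, 33.2%, 33.5% and 31.7% against 29.0%, 30.7%, 29.1% and 27.5%, higher on all 4 plates by 3.44 ± 0.99 percentage points (SD). Each of the last 3 measures has a permutation p of 0.125 (adjusted p = 0.146 over 7 measures). In step with that share, 14 of 32 tested mitochondrially encoded genes were higher and 2 lower, beside a background of 15% and 15.1%. MT-CYB was at 0.38, MT-CO3 at 0.32, MT-CO2 at 0.30 and MT-CO1 at 0.27. The part of depth and of the mitochondrial share in the other differences was not tested. With the other cells matched to the members on that share 1772 genes were called, and with cells matched on total counts 2081.

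**Figure D4:**
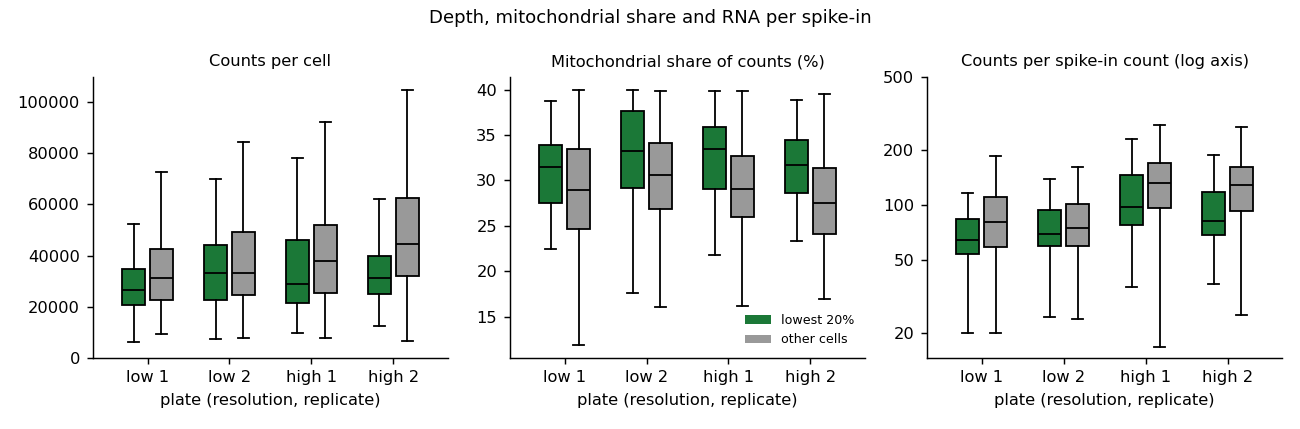
Boxes give the quartiles and median over cells, and whiskers reach the last cell within 1.5 box lengths, for counts per cell, the mitochondrial share (axis not from 0) and counts per spike-in count (log axis). Green boxes are non-cycling cells and grey boxes the others of the same plate; the mitochondrial median is higher and the spike-in ratio lower in the green box on all 4 plates.

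The differences were fewer at equal depth but rarely changed direction. When every cell was thinned to 10000 UMIs, 658 of 8685 genes were called higher (7.58%) and 850 lower (9.79%). Of the 3366 genes called at full depth 3026 could be tested there, of which 3007 kept their direction and 1442 were called again. Antiproliferative genes were then higher in 11 of 26 and lower in none, squamous genes in 12 and 1 of 23 and luminal genes in 9 and 1 of 17. Ribosome biogenesis genes were lower in 9 of 19 and higher in none. Of the CDK inhibitors, CDKN1C was called lower (-1.13, adjusted p = 0.026), CDKN2C missed the threshold (-0.85, adjusted p = 0.0505) and CDKN1A stayed near 0 (-0.08, adjusted p = 0.72). SPRR1B, PSCA and KRT10 differed by 2.00, 1.39 and 0.89, and NOP56 and AXL by -0.93 and -1.35.

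Few genes were called against the cells next in rank. With the next 20% of cells as the only comparison cells, 28 of 9172 genes were called by edgeR (0.305%), 21 higher and 7 lower, and 664 had an unadjusted p under 0.05. Of the 28, 27 had been called in the same direction against all other cells. The higher ones included SPRR1A (2.36), SPRR1B (2.06), SPRR3 (2.05), GCNT3 (0.91), RARRES1 (0.78), PSCA (0.74), CD24 (0.53), IFITM10 (0.495) and ELF3 (0.46). Also higher, and named only after their values were seen, were the cytidine deaminase APOBEC3A (1.91) and PADI4 (1.42), which converts arginine in proteins to citrulline. Of the lower ones, MGP, a calcification inhibitor, differed by -1.77, CYP1A1 by -1.46, the serine synthesis enzyme PHGDH by -1.23 and the metallothioneins MT1E and MT2A by -0.59 and -0.50, again named after their values were seen.

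**Figure D5:**
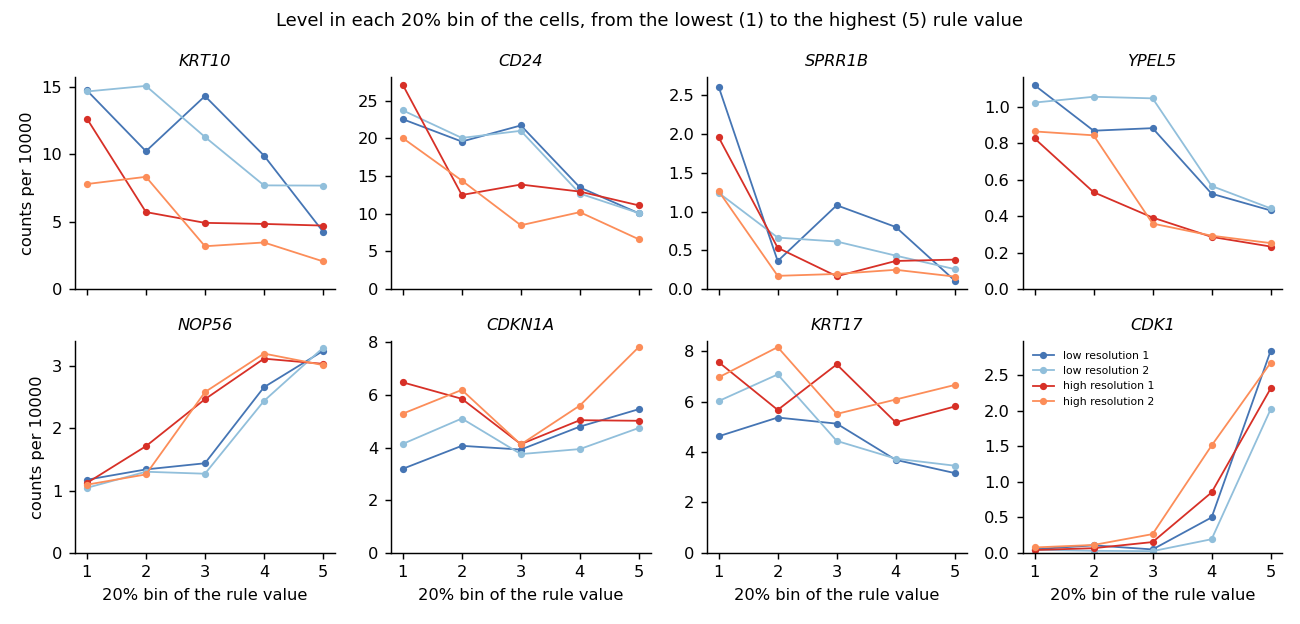
Level of 8 genes (counts per 10000, summed over the cells of a bin) in bins of 20% of the cells of each plate, from the lowest (1) to the highest (5) level of the 10 proliferation genes. SPRR1B is highest in the lowest bin of every plate, YPEL5 falls and NOP56 rises from the middle bin on the low-resolution plates and earlier on the high-resolution plates, and CDKN1A has no single direction.

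Levels along the bins differed between genes and plates. YPEL5 ran 1.02, 1.05, 1.05, 0.565 and 0.442 from the lowest to the highest bin of low resolution 2, and 0.826, 0.531, 0.392, 0.286 and 0.233 on high resolution 1. NOP56 ran 1.04, 1.30, 1.27, 2.44 and 3.29 on low resolution 2, and 1.12, 1.71, 2.47, 3.12 and 3.04 on high resolution 1. In both genes the 3 lowest bins of low resolution 2 lay together, as the G2/M list did. SPRR1B ran 1.24, 0.664, 0.613, 0.431 and 0.257 on low resolution 2, and 1.96, 0.533, 0.165, 0.362 and 0.380 on high resolution 1.

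The differences were larger on the high-resolution plates for a limited set of genes. The interaction of non-cycling state with resolution, tested by edgeR over the 4 plates, was called for 158 of 11199 genes. It was more positive at high resolution for 144 (1.29%) and more negative for 14 (0.125%), and 1125 genes had an unadjusted p under 0.05. Of the 144, 101 were higher in non-cycling cells on both low-resolution plates, and 17 were lower on both. The called genes included 10 of the squamous list, 8 of the luminal list, 1 of the antiproliferative list, and none of the CDK inhibitor and ribosome biogenesis lists. For PSCA the non-cycling level was 28.5 and 28.7 at low and 19.0 and 19.6 at high resolution, and the level of the other cells was 14.2 and 15.4 against 4.99 and 4.15 (interaction log2 1.17 ± 0.10, adjusted p = 1.9e-11). The comparison cells differed in make-up, since 3 of the 5 bins of each low-resolution plate had the low G2/M level of the members and on the high-resolution plates the lowest 2 bins lay at 8.61 and 10.3 and at 8.49 and 9.86, with the middle bins at 20.1 and 22.7. The part of this in the interaction was not tested.

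The defining markers of the line were found in the members. KRT5 was at a mean of 17.7 counts per 10000 in non-cycling and 20.6 in other cells, KRT17 at 6.29 and 5.29, KRT14 at 1.35 and 2.11, EPCAM at 0.766 and 1.06, and CDH1 at 0.667 and 0.567. Of the 10 defining markers 9 were tested, with 2 higher and 2 lower, few genes beside the background of 15% and 15.1%. TP63 was near 0 in both arms (5 counts in members). Markers of other cell types were low. The summed fibroblast markers were at 0.0963 to 0.334 in members and at 0.0718 to 0.104 in other cells, the immune markers at 0.451 to 0.701 and 0.223 to 0.580, and the endothelial markers at 0.221 to 0.330 and 0.178 to 0.222. Most of the immune sum was CD14 (0.4996 against 0.292, log2 0.91, adjusted p = 2.8e-04), while the defining PTPRC, CD3E and CD3D had 2, 1 and 1 counts in all members. PECAM1 (0.228 against 0.158, log2 0.62) made most of the endothelial sum, with VWF and CDH5 at 1 count each and TEK at 0. The fibroblast marker DCN, a matrix proteoglycan, had 56.2 counts in all members, at 0, 0.00535, 0.0243 and 0.236 counts per 10000 against 0.00120, 0.00365, 0.00320 and 0.00175 in the other cells. These counts lay mostly on high resolution 2, and their part in the results was not tested. COL1A1 did not pass the test (log2 0.28, adjusted p = 0.44).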

How the data were processed

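SORT-seq libraries of 4 plates were analysed, 2 for each resolution. The submitters' processing notes name STAR 2.7.3a, hg38 and Seurat 4 with no role, and name no counting settings. The deposited values are estimated counts per gene and well made by the authors, corrected for UMI collisions among 4096 barcodes, and undoing the correction gave whole UMIs to within 4.55e-13 for all 6289233 values above 0. Counts of members and of the other cells were summed per plate, rounded and tested with edgeR 4.0.16 (R 4.3.3; TMM, filterByExpr, quasi-likelihood test, plate as a block, Benjamini-Hochberg, threshold 0.05), leaving out the 10 rule genes and spike-ins. DESeq2 1.42.0 was an alternative. Levels are sums per 10000 counts. The code was tested on simulated data. Plates are the replicates, and intervals cover counting error only. Doublets were not called, since wells were sorted singly and over 9000 genes removed a well. Genes named are the 10 rule genes, all CDK inhibitors, the 10 largest called rises and falls with 1 sign on all plates and at least 0.5 per 10000, and the 4 lowest adjusted p of each list, and further called list members are named after their values were seen. Some genes selected by this rule are not reported here. The EMT panels are limited to genes found in 5% of cells for the score. The members and lists were chosen with earlier results of these data known.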

Additional observations from a re-analysis of the deposited data

Results flagged for a closer look

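For 17 genes named in the report the difference between non-cycling and other cells depended on the resolution of tagging, by edgeR's interaction test over all genes (adjusted p under 0.05, 2 plates against 2). Each value is a log2 difference at high minus low resolution. The squamous genes were SPRR3 (3.17), SPRR1B (0.71), KRT10 (0.59) and PPL (0.64). Among luminal genes and epithelial factors they were CD24 (0.53), ALDH1A3 (0.60) and ELF3 (0.98). Of the further large rises they were ZBED6CL (1.47), PSCA (1.17), IFITM10 (0.99), GCNT3 (0.92), RARRES1 (1.37) and HSD11B2 (1.17). TXNIP (0.62), IGFBP3 (0.83), FOSB (0.64) and PTGDS (1.53) completed the set. For SPRR3 the non-cycling level was 0.709 and 0.438 counts per 10000 at high and 1.17 and 0.548 at low resolution, with overlapping ranges, and the level of the other cells was 0.0288 and 0.0140 against 0.338 and 0.209. The larger number of low-cycle comparison cells at low resolution moves with these values, and its part was not tested. With 2 plates in each group, no plate was tested as an outlier.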

How the results depend on the processing

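The 3366 genes called between non-cycling and other cells became 1508 with the same cells at 10000 UMIs and 1411 with the members chosen at 10000 UMIs. They became 2081 and 1772 with the other cells matched on total counts or mitochondrial share. Within the lower and upper part of the EMT score they were 1769 and 2132. Against the next 20% of cells they were 28, by DESeq2 2117 and without the plate block 1421. Leaving out 1 plate gave 2202 (without high resolution 2) to 3187. The 158 interactions became 37 by DESeq2, 49 with members chosen at 10000 UMIs and 131 to 170 with 1 plate left out. With a term added for membership by replicate number they became 214, although replicate numbers pair no plates across resolutions (correlation of deviations 0.0940). The S and G2/M difference was -1.88 with members chosen at 10000 UMIs. Fewer cells or UMIs enter several of these settings, and the cause of each change was not tested. CDKN1A, near 0, changed sign with the rule on 1 part of the UMIs (0.0444), others matched on total counts (0.0220) and lower EMT scores (0.120). It also did so with the lowest 1 in 3 of cells (0.0267), the S phase and G2/M lists as rule (0.274) and rule values under 1 per 10000 (0.0144). The highest cell left out (0.00786) and no plate block (0.0112) turned it too, and it ran from -0.207 to 0.120 with 1 plate left out. CDKN1B changed sign against the next 20% (0.0355) and for the lowest 1 in 10 (0.0848), and ran from -0.135 to 0.0766 with 1 plate left out. Against the next 20%, MAD2L1 (0.107), LIN54 (0.204), KRT17 (-0.0389), MSMO1 (-0.0350) and RPS7 (0.0192) turned, at higher EMT scores SPRR1B (-0.430), FOSB (-0.141), KRT14 (0.0610), CDH1 (-0.0196) and HSPB1 (-0.103), and KRT14 also with others matched on total counts (0.233) or mitochondrial share (0.269). Of 2148 gene values under alternatives 1872 kept direction and side of the threshold. Rule values under 1 per 10000 and the highest cell left out were settings chosen after seeing the data. On the low-resolution plates members were chosen from few UMIs, near the sampling limit.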
